A study of Homo sapiens with 6 samples.

Results

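The genes described here encode components of the canonical Wnt pathway and the inhibitors that the pathway induces against itself. The list named 44 genes, found on the array by their symbols. Of these, 41 had at least 1 probe set assigned to that gene alone, with 110 probe sets in all, and 39 were bright enough to be tested. They stood among 14308 genes tested in the whole data set. FZD8, PORCN and TCF7 were not analysed here, and the FZD8 probe sets carry a second gene symbol. WIF1 and SFRP5 lay below the filter on dim probe sets.

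The cells were LS174T, a human colon adenocarcinoma line that makes mucin and carries an activating mutation of CTNNB1, the gene of beta-catenin. There were 3 cultures in CompE at 250 nM and 3 in the vehicle DMSO, each for 48 h and each measured on its own Affymetrix Human U133 Plus 2.0 array. CompE is a common short name of Compound E, which inhibits gamma-secretase, the protease that frees the intracellular domain of Notch receptors; the labels give the short name alone. A single line was used, so the results describe that line, and in bulk RNA fewer cells of a kind cannot be told apart from less RNA per cell.

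In canonical Wnt signalling, secreted Wnt proteins bind a Frizzled receptor together with LRP5 or LRP6. Without them, a cytoplasmic destruction complex of AXIN, APC, GSK3 and casein kinase marks beta-catenin for degradation. With them, beta-catenin accumulates, enters the nucleus and activates genes bound by TCF and LEF factors. Several of those target genes, such as AXIN2, NKD1, RNF43, ZNRF3, NOTUM and APCDD1, restrain the pathway again. In the intestine the pathway maintains the stem cells at the crypt base. A stabilising mutation of beta-catenin, as in LS174T, takes the protein out of the control of the destruction complex.

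The promoter windows of a pair of feedback genes are shown because APCDD1 rose in CompE and SP5 had its 3 highest values there. Each runs from 250 bases before to 50 bases after the annotated transcript start in RefSeq (GRCh38.p14), and both genes lie on the plus strand. Capitals mark 3 motifs searched on both strands: the TCF/LEF core CTTTGAT, the RBPJ core TGGGAA through which Notch acts, and the E-box CAGCTG, a form bound by basic helix-loop-helix factors. The APCDD1 window is chr18:10454385-10454684 and the SP5 window is chr2:170715087-170715386.
APCDD1: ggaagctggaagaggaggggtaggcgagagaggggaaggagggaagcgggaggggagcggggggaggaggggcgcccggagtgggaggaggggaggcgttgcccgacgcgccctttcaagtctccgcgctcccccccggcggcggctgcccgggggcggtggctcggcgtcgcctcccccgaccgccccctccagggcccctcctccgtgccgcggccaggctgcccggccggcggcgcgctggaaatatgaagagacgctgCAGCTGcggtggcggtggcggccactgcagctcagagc
SP5: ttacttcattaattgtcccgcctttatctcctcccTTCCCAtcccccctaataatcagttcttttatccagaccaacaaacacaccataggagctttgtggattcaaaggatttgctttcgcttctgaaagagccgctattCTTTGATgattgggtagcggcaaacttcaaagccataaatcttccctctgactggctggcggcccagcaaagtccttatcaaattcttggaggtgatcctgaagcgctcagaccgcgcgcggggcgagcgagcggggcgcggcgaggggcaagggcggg
The SP5 window held 1 TCF/LEF core, 1 RBPJ core on the opposite strand and 0 E-boxes. The APCDD1 window held 0 TCF/LEF cores, 0 RBPJ cores and 1 E-box. Among all 35116 RefSeq windows of this length, 2.62% held the TCF/LEF core, 24% the RBPJ core and 17.9% the E-box. Windows were found for 32 members (44 windows), and SP5 was the 1 among them with the TCF/LEF core. None was at hand for NKD1, FZD2, FZD3 or AXIN2, so the motifs were not searched in these genes. These matches describe the letters alone.

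Across the genes tested, Pearson's r was 0.984 to 0.987 between a CompE and a DMSO array and 0.99 to 0.991 between arrays that share a treatment. Median intensities were 36.9 to 38.6. All 10 colon epithelial markers checked were above the background level, and 3 of them were called: MUC2 rose 2.07-fold, CDX2 rose 1.35-fold and CDH17 fell by 0.31 log2 units. Of 16 markers of fibroblasts, leukocytes and endothelium, 11 were bright enough to be tested, 7 exceeded the background level and 0 were called by limma (CD14, LYZ and KDR were lower at an unadjusted p under 0.05). LYZ, which some epithelial cells also express, was bright among them (mean log2 intensity 10.46). Of 8 genes that respond to Notch signalling, 5 were called, with log2 changes of -2.60 for OLFM4, -1.49 for HES1 and -0.32 for NRARP and of 2.61 for ATOH1 and 1.35 for DLL1 (limma adjusted p 0.000253 to 0.0418). HES4, HES5 and HEY1 gave -0.53, -0.14 and 0.13 and were not called (limma adjusted p 0.0508, 0.181 and 0.7). Some technical features also differed. The ratio of 3' to 5' signal of ACTB was 1.51 ± 0.0193 in CompE and 1.44 ± 0.0201 in DMSO (SD, n = 3 each). That of GAPDH went the other way and overlapped, at 0.946 ± 0.0264 in CompE and 0.968 ± 0.0106 in DMSO. The 18 hybridisation control probe sets were 0.14 log2 units brighter in CompE. The part of these technical differences in the results was not tested.

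Intensities are the authors' dChip-normalized values on a linear scale, and changes are CompE minus DMSO on the log2 scale. A gene was called where its adjusted p from limma, over all 14308 genes, was under 0.05. The background level, 45.7, is the 95th percentile of 27 control probe sets that match Bacillus RNA and no human RNA. Levels of different genes are not compared, because probe sets differ in brightness.

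Of the 39 members tested, 4 rose in CompE and 0 fell: NKD1, FZD2, APCDD1 and FZD3. That is 10.3%, beside 7.14% of all genes tested. Higher calls alone made up 4.56% of all genes and lower calls 2.57%. At an unadjusted p under 0.05 there were 11 higher and 0 lower members (28.2% in all, beside 24.5% of all genes in either direction). Of all 14308 genes, 2145 were higher and 1366 lower at that p, so the members leaned more to higher values. The groups did not overlap for 13 members (33.3%, 11 higher and 2 lower), beside 32.2% of all genes (19.1% higher and 13% lower). With both directions pooled, the share of members without overlap was thus near that of the array. Its split between higher and lower was more uneven than that of all genes. The median change was 0.12 among the members tested and 0.02 among all genes. The change was positive in 66.7% of the members and in 54.9% of all genes. The direction of small changes depended on the scaling. When hybridisation controls were used to centre the arrays, the median of all genes shifted by -0.14 to -0.12, with 340 rises and 1552 falls over all genes, against 653 and 368 in the deposited scaling. The median of the members was then -0.02, and 3 members rose (NKD1, APCDD1 and FZD2) while 1 fell (FZD7, by 0.30 log2 units; limma adjusted p = 0.0316).

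**Figure D1:**
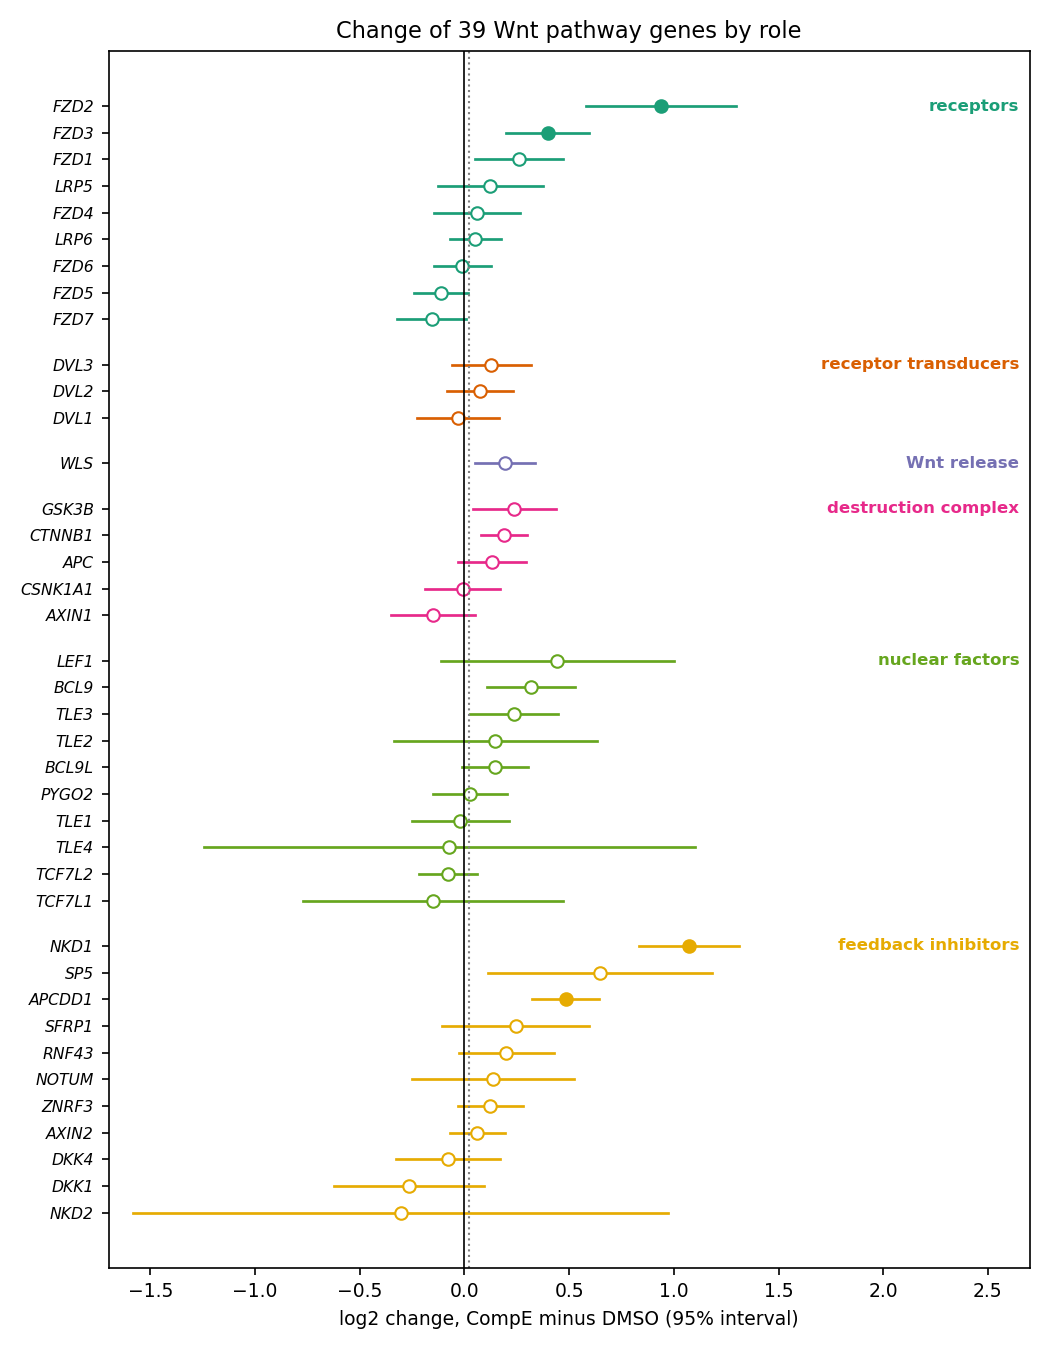
Change of the 39 tested members, in log2 units (CompE minus DMSO), grouped by role; bars are 95% intervals from the limma fit, filled points are genes with an adjusted p under 0.05, and the dotted line is the median of all genes (0.02). NKD1 and FZD2 lie near 1, APCDD1 and FZD3 near 0.5 and 0.4, and most of the others within 0.3 of 0.

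The feedback inhibitors held the largest rise. Limma called 2 of the 11 tested, NKD1 and APCDD1, both as rises, and left 9 uncalled, beside 7.14% called of all genes. The list held 13. Over all 11, calls included, 3 were higher and 0 lower at an unadjusted p under 0.05 (SP5 besides the called pair). The share of all genes at that p was 24.5% in either direction. NKD1 encodes Naked cuticle homolog 1, a cytoplasmic antagonist that binds Dishevelled. Its intensity was 400.0, 369 and 431 in CompE, against 194, 170.0 and 207 in DMSO. All CompE values lay well above all DMSO values. The change was 2.10-fold, or 1.07 ± 0.10 on the log2 scale (SE; 95% interval 0.83 to 1.31; limma adjusted p = 0.0048), which placed NKD1 at rank 120 by p among all genes tested.

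All 3 NKD1 probe sets rose in a limma fit over 26962 single probe sets, of which 4.28% were called. The second read 267, 276 and 258 in CompE and 108, 90.1 and 101 in DMSO, a log2 change of 1.42 (limma adjusted p = 0.00231). The dimmest read 83.0, 115 and 123 in CompE and 49.2, 59.5 and 52.0 in DMSO (0.98; limma adjusted p = 0.037). NKD1 was called under all 16 alternatives that tested it, with log2 changes of 0.93 to 1.16.

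APCDD1 encodes a membrane glycoprotein that binds Wnt and LRP5 and inhibits signalling at the cell surface; its promoter window is printed above. It read 499, 537 and 483 in CompE, against 363, 344 and 379 in DMSO. The groups did not overlap. APCDD1 was 1.40-fold higher in CompE (0.48 ± 0.07 log2 units, SE; limma adjusted p = 0.0156). The call ended without CompE replicate 1 or any single DMSO array (highest limma adjusted p 0.0671), while the change stayed between 0.44 and 0.52.

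AXIN2, a scaffold of the destruction complex and the most used readout of beta-catenin activity, did not follow NKD1. It read 1677, 1626 and 1753 in CompE, against 1564, 1653 and 1629 in DMSO. The groups overlapped. The log2 change was 0.06 ± 0.05 (SE; limma adjusted p = 0.543), with a 95% interval of -0.07 to 0.19, or 0.952-fold to 1.14-fold. That interval lies wholly below the interval of NKD1. The other 3 AXIN2 probe sets gave -0.12 to 0.11 and were not called.

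The pair of transmembrane ubiquitin ligases that remove Frizzled receptors from the cell surface were not called either. RNF43 read 1309, 1418 and 1214 in CompE, against 1183, 1032 and 1218 in DMSO. These overlapped narrowly, with a log2 change of 0.20 ± 0.09 (SE; limma adjusted p = 0.247; 95% interval -0.03 to 0.43). ZNRF3, its paralogue, averaged 1451 ± 61.3 in CompE and 1333 ± 71.7 in DMSO (SD, n = 3 each; log2 change 0.12). NOTUM, a secreted enzyme that removes the lipid from Wnt proteins, averaged 165 ± 31.8 in CompE and 149 ± 15.8 in DMSO.

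SP5, a zinc finger repressor that beta-catenin induces directly, read 74.2, 75.2 and 49.5 in CompE and 33.2, 46.8 and 46.3 in DMSO. Each CompE value exceeded each DMSO value, but the DMSO mean was at the background level, and SP5 was not called (limma adjusted p = 0.141). The lowest CompE value lay close to the highest DMSO value. The mean in CompE, taken on the log2 scale, was 1.43-fold over the background level.

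Secreted antagonists showed no call. DKK1 and DKK4, Dickkopf proteins that block LRP5 and LRP6, averaged 71.0 ± 12.6 and 70.7 ± 3.65 in CompE, against 84.7 ± 8.61 and 75.0 ± 9.36 in DMSO (SD, n = 3 each). Their groups overlapped, and their log2 changes of -0.26 and -0.08 were not called (limma adjusted p = 0.329 and 0.679). SFRP1, a secreted decoy that binds Wnt proteins, and NKD2, the paralogue of NKD1, were at or below the background level in both groups. The decoy genes WIF1 and SFRP5 were not tested. WIF1 did not exceed 17.4 on any array. SFRP5 read 42.8, 32.2 and 25.9 in CompE, against 12.1, 1.57 and 5.79 in DMSO, all below the background level, so that no fold is given.

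**Figure D2:**
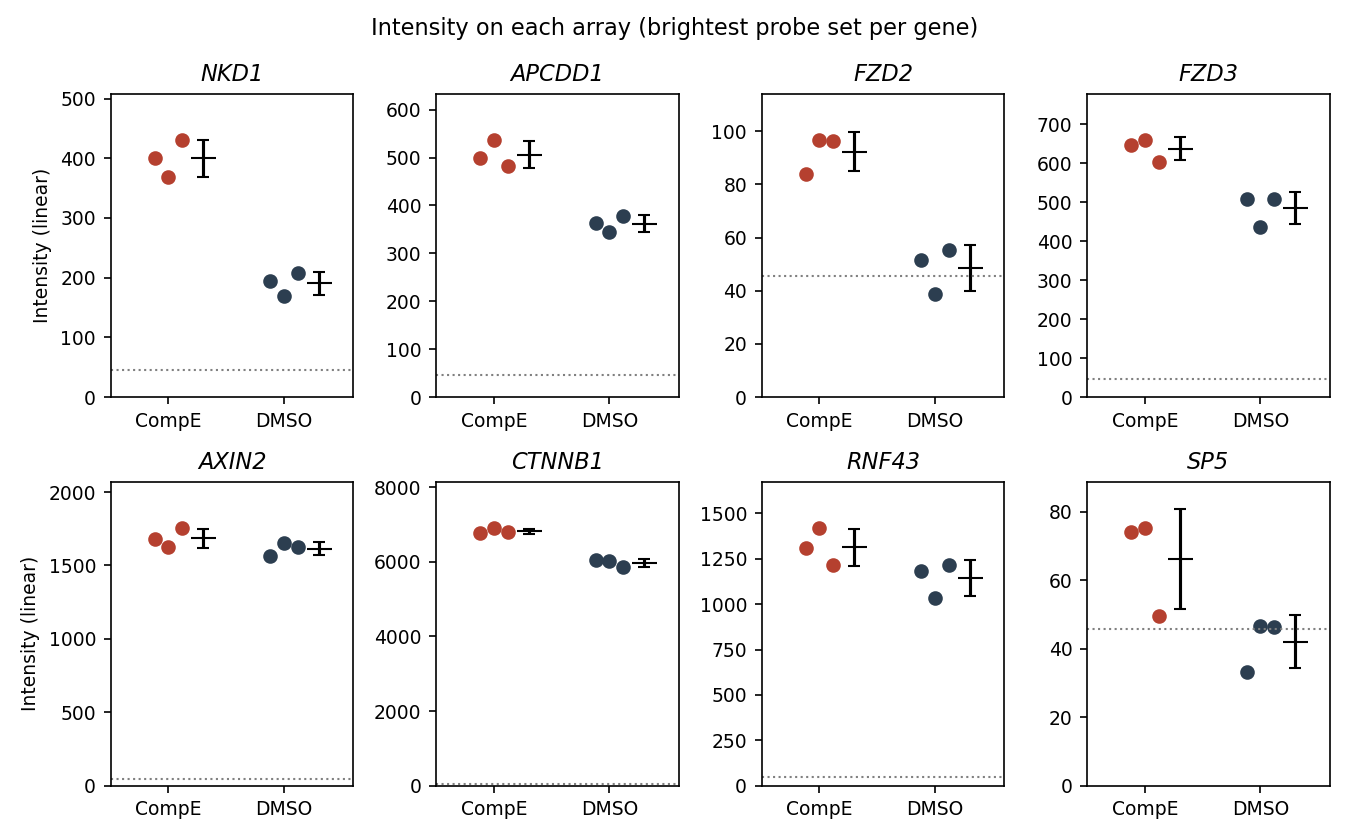
Intensity of 8 members on each array (linear scale from 0; each panel has its own axis), with CompE at the left and DMSO at the right; points are arrays, bars are mean ± SD (n = 3) and the dotted line is the background level of 45.7. The groups are apart for NKD1, APCDD1, FZD2, FZD3, CTNNB1 and, narrowly, SP5, and overlap for AXIN2 and RNF43.

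Among the 9 receptors tested, limma called 2, both as rises, and left 7 uncalled, beside 7.14% called of all genes. Over all 9, calls included, 3 were higher and 0 lower at an unadjusted p under 0.05 (FZD1 besides the called pair). That p was reached by 24.5% of all genes in either direction. FZD2, a Frizzled receptor, read 84.1, 96.8 and 96.2 in CompE, against 51.5, 38.9 and 55.4 in DMSO. It was bright in no group, and DMSO replicate 2 lay below the background level. The change was 1.92-fold, or 0.94 ± 0.15 log2 units (SE; limma adjusted p = 0.0227). The second FZD2 probe set was below the background level and gave 0.28. With its probe sets averaged the log2 change was 0.61 and not called (limma adjusted p = 0.0793). FZD2 was called under 9 of the 16 alternatives that tested it. The call ended without any 1 of the CompE arrays or without DMSO replicate 1 (limma adjusted p 0.0627 to 0.0759), and the log2 change without single arrays was 0.79 to 1.04.

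FZD3, a Frizzled receptor best known from planar polarity and axon guidance, read 648, 661 and 604 in CompE, against 508, 437 and 509 in DMSO. The groups did not overlap. The change was 1.32-fold (0.40 ± 0.08 log2 units, SE; limma adjusted p = 0.0435), and the call ended whichever array was left out (limma adjusted p 0.0785 to 0.139). Of its 3 other probe sets, 2 rose in the fit over single probe sets, by 0.34 each (limma adjusted p = 0.0354 and 0.0458), while there the brightest was not called (limma adjusted p = 0.0604) and the remaining one gave 0.01. With its probe sets averaged the log2 change was 0.27 and not called (limma adjusted p = 0.0601). The call also ended when arrays were centred on hybridisation controls (limma adjusted p = 0.0725). FZD3 was called under 5 of 17 alternatives.

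The Frizzled genes did not move as a block. FZD1 averaged 464 ± 32.8 in CompE and 388 ± 31.4 in DMSO (SD, n = 3 each; log2 change 0.26, limma adjusted p = 0.135). FZD5, the main Frizzled of Paneth cell maturation in mouse intestine, read 934, 944 and 1006 in CompE, against 1014, 1059 and 1042 in DMSO. Every CompE value was the lower, yet the log2 change of -0.11 ± 0.05 (SE) was not called (limma adjusted p = 0.259). FZD7, a receptor of intestinal stem cells in mouse, likewise had no overlap, with 184, 188 and 170.2 in CompE and 202, 212 and 191 in DMSO (-0.16; limma adjusted p = 0.221). FZD4 and FZD6 gave log2 changes of 0.06 and -0.01.

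The co-receptors differed little. LRP6 read 597, 626 and 615 in CompE, against 609, 577 and 587 in DMSO, which overlapped (log2 change 0.05 ± 0.05, SE; limma adjusted p = 0.575; 95% interval -0.07 to 0.17). LRP5 averaged 202 ± 24.7 in CompE and 184 ± 11.4 in DMSO (SD, n = 3 each). The Dishevelled genes DVL1, DVL2 and DVL3, whose proteins carry the signal from the receptor to AXIN, gave log2 changes of -0.03, 0.07 and 0.13, and 0 of 3 were called (0 at an unadjusted p under 0.05).

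WLS encodes the carrier that brings Wnt proteins to the cell surface. It read 841, 875 and 863 in CompE, against 715, 743 and 797 in DMSO. The groups did not overlap, and the 3 WLS probe sets gave 0.10 to 0.19 log2 units, all positive. The change of the brightest, 1.14-fold, was not called (limma adjusted p = 0.111).

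None of the 5 genes grouped under the destruction complex was called by limma. The group includes CTNNB1, whose protein is the target of the complex. At an unadjusted p under 0.05, 2 were higher and 0 lower, beside 24.5% of all genes in either direction. These were CTNNB1 and GSK3B, the latter by its brightest probe set, whose direction its other probe sets did not all share. CTNNB1, the gene of beta-catenin, read 6757, 6895 and 6786 in CompE, against 6058, 6009.8 and 5846 in DMSO. The CompE values were tightly grouped above all DMSO values, at 1.14-fold (0.19 ± 0.04 log2 units, SE; limma adjusted p = 0.0641). The second CTNNB1 probe set read 1903, 1828 and 1982 in CompE and 1509, 1493 and 1428 in DMSO and rose by 0.37 (limma adjusted p = 0.0343 over all probe sets), and the dimmest gave 0.07. Centred on the hybridisation controls, the brightest CTNNB1 probe set gave 0.05.

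APC, the scaffold lost in most colon cancers, read 360.0, 335 and 361 in CompE, against 334, 299 and 332 in DMSO. These were apart by a small margin (log2 change 0.13 ± 0.07, SE; limma adjusted p = 0.291), and its 5 probe sets ranged from -0.29 to 0.22. AXIN1, the constitutive AXIN scaffold, and CSNK1A1, the casein kinase that primes beta-catenin, gave log2 changes of -0.15 and -0.01.

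GSK3B, the kinase that marks beta-catenin for degradation, gave unlike values between its probe sets. The brightest read 799.7, 821 and 686 in CompE, against 670.0, 639 and 641 in DMSO (0.24; limma adjusted p = 0.145). The next brightest read 468, 429 and 392 in CompE, against 531, 479.999 and 519 in DMSO (-0.25). Both had groups that did not overlap, in opposite directions, and neither was called. The next gave 0.56 (limma adjusted p = 0.0597 over all probe sets), so no direction is given for GSK3B.

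**Figure D3:**
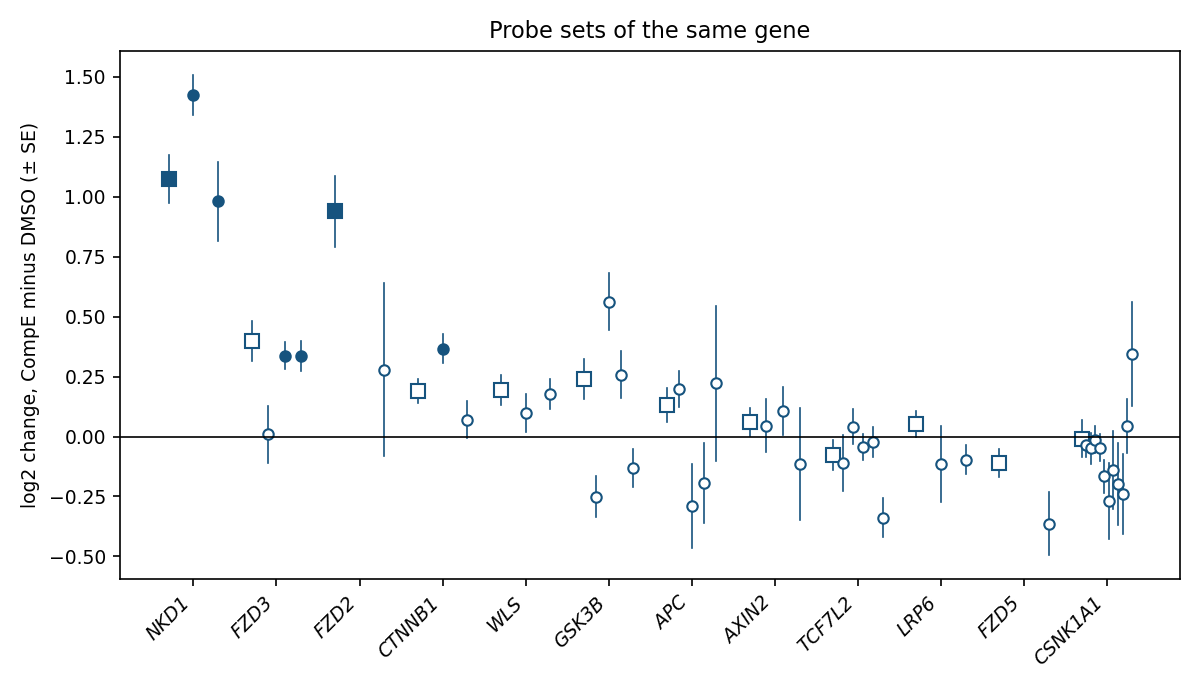
Log2 change (CompE minus DMSO, ± SE) of each tested probe set of 12 members; squares are the brightest probe set of a gene, circles the others in order of brightness, and filled symbols have an adjusted p under 0.05 over all probe sets. All 3 NKD1 probe sets lie near or above 1, 3 of 4 for FZD3 lie between 0.3 and 0.4, and those of GSK3B and APC lie on both sides of 0.

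Nuclear factors gave 0 calls among 10 tested in limma. BCL9 and TLE3 made up the 2 higher at an unadjusted p under 0.05, with 0 lower, beside 24.5% of all genes in either direction. TCF7L2, the main TCF factor of the colon epithelium, read 1036, 1035 and 1027 in CompE, against 1144, 1028 and 1099.7 in DMSO. The groups overlapped, at -0.08 ± 0.06 log2 units (SE; limma adjusted p = 0.46; 95% interval -0.22 to 0.06). Its 6 tested probe sets ranged from -0.34 to 0.04. LEF1, a family member little expressed in normal intestine, read 58.4, 57.7 and 46.2 in CompE, against 28.8, 42.0 and 51.1 in DMSO. These overlapped and lay about the background level (limma adjusted p = 0.291). TCF7L1, a repressor of the family, averaged 55.3 ± 9.68 in CompE and 62.8 ± 19.0 in DMSO (SD, n = 3 each).

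BCL9, which links beta-catenin to the PYGO cofactors, read 127, 128 and 129 in CompE and 113, 105 and 91.4 in DMSO. The groups did not overlap (log2 change 0.32; limma adjusted p = 0.0873). BCL9L, its paralogue, and PYGO2, its partner, gave 0.15 and 0.02. Of the Groucho corepressors, which bind TCF factors in the absence of beta-catenin, TLE3 gave 0.24 (limma adjusted p = 0.164), TLE1 -0.02 and TLE2 0.15. TLE4 was at or below the background level in both groups.

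**Figure D4:**
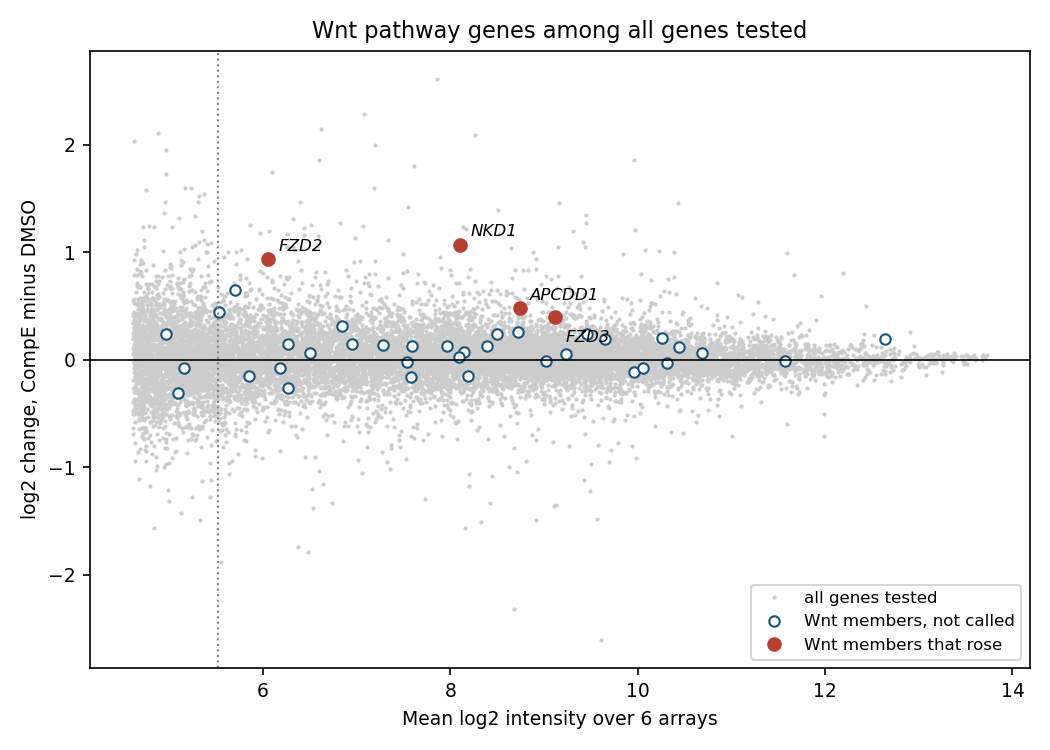
Log2 change (CompE minus DMSO) against mean log2 intensity over 6 arrays for all 14308 genes tested (grey), with the tested members as open circles and those that rose as filled circles; the dotted line is the background level. FZD2 sits near the background level, and NKD1, APCDD1 and FZD3 well above it.

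Other genes of the pathway, taken from lists by function, were called at a share near that of the whole array. Of 85 listed, 53 were tested, 3 rose and 2 fell (9.43%, beside 7.14% of all genes), with a median of 0.09. There were 12 higher and 2 lower at an unadjusted p under 0.05, beside 24.5% of all genes in either direction. HIPK2, a nuclear kinase that phosphorylates TCF factors, read 1918, 1872 and 1927 in CompE, against 1320.2, 1256 and 1269 in DMSO, which did not overlap (1.49-fold; limma adjusted p = 0.00362). With all HIPK2 probe sets averaged the log2 change was 0.25 and not called (limma adjusted p = 0.0727). TLE5, a short Groucho protein, rose 1.20-fold (limma adjusted p = 0.0323).

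The remaining 3 calls of these lists were named after their values were seen. RNF146, a ubiquitin ligase that degrades AXIN, rose 1.24-fold (limma adjusted p = 0.0368). LGR4, an R-spondin receptor that protects Frizzled receptors, read 1243, 1115 and 1178 in CompE, against 1392, 1525 and 1535 in DMSO, without overlap, and fell by 0.33 log2 units (limma adjusted p = 0.0448). WNT10A, a ligand, averaged 61.5 in CompE and 76.2 in DMSO and fell by 0.31 log2 units (limma adjusted p = 0.0395). Of 19 Wnt ligands, 7 passed the filter. With any 1 array left out, HIPK2 kept its call, and TLE5, RNF146, LGR4 and WNT10A lost theirs (1 rise and 0 falls in each such fit).

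Genes known as Wnt targets, other than the feedback inhibitors, showed more calls. Of 26 listed, 21 were tested, and limma called 10, all as rises, with 0 falls (47.6%, beside 7.14% of all genes). There were 11 higher and 3 lower at an unadjusted p under 0.05, beside 24.5% of all genes in either direction. Centred on hybridisation controls, 7 rose and 3 fell. The list was written with earlier results of these arrays known, so that its share is no independent evidence of a direction. SMOC2, RGMB and ASCL2, genes of the crypt base, rose by 1.20, 0.99 and 0.79 log2 units and were called under all 17 alternatives. LGR5, the R-spondin receptor that marks crypt base stem cells, read 1236, 1255 and 1249 in CompE, against 872, 907 and 997 in DMSO, without overlap (0.43; limma adjusted p = 0.0194). With 1 array left out, LGR5 kept its call only without DMSO replicate 3 (highest limma adjusted p 0.0806), and it lost the call with control centring and with no filter. PROX1, a homeobox gene induced by beta-catenin in colon tumours, read 197, 149 and 222 in CompE, against 96.0, 78.5 and 81.8 in DMSO. The groups were far apart, at 2.20-fold (limma adjusted p = 0.0191), and the call ended without CompE replicate 1 or 3 or DMSO replicate 2 or 3 (highest limma adjusted p 0.0799).

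JUN, a subunit of AP-1, read 1467, 1419.7 and 1479.8 in CompE, against 884, 905 and 829 in DMSO. It was 1.67-fold higher with no overlap (limma adjusted p = 0.00259). SP8, a zinc finger gene related to SP5, read 409, 421 and 393 in CompE, against 268, 240.2 and 277 in DMSO (1.56-fold; limma adjusted p = 0.00843), although with its probe sets averaged the log2 change was 0.26 and not called (limma adjusted p = 0.176). ETS2, an ETS factor, rose 1.29-fold, TSPAN5, a tetraspanin, 1.29-fold, and ID2, an inhibitor of basic helix-loop-helix factors, 1.24-fold (limma adjusted p = 0.0104, 0.0215 and 0.0356). ETS2 lost its call without CompE replicate 1 or DMSO replicate 2 or 3. TSPAN5 kept its call without CompE replicate 3 and lost it in the other fits with 1 array left out, and ID2 lost its call in all of them. With probe sets averaged, TSPAN5 and ETS2 were not called, and ETS2 and ID2 lost theirs with control centring. The log2 change of TSPAN5 was as low as 0.11 among the alternatives.

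The most familiar proliferative targets were not among those that rose. MYC averaged 3177 in CompE and 3583 in DMSO, a log2 change of -0.18 (limma adjusted p = 0.14). CCND1, which encodes cyclin D1, gave -0.02, CD44, an adhesion receptor, -0.09, and SOX9, a crypt transcription factor, -0.13. EPHB3, a guidance receptor of the crypt base, gave -0.19 (limma adjusted p = 0.0965). Within the same arrays, the targets thus included genes with higher values in CompE and AXIN2 with an interval around 0. MYC, CD44, SOX9 and EPHB3 had every CompE value below every DMSO value though not called. CDX1, CEMIP and SLC12A2, also not called, had every CompE value above every DMSO value (log2 changes 0.14, 0.10 and 0.14). Without overlap, 13 of the 21 listed targets tested were higher and 4 lower, beside 19.1% and 13% of all genes.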

How the data were processed

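RNA of 3 CompE and 3 DMSO cultures was measured on 1 Affymetrix array each. The deposited values are probe set intensities, which the authors normalized between arrays with dChip, per the series design text; the settings used are not stated there. From them, intensities under 1 were set to 1 and log2 was taken. Control probe sets (62) and the lowest 40% by mean log2 (intensity under 24.4) were left out. Symbols came from the platform annotation of 2016, updated by Entrez identifier; 41091 probe sets carried a single symbol, 1800 carried more and 11721 are unnamed here. The brightest probe set stood for its gene. limma 3.58.1 (R 4.3.3; lmFit, eBayes) compared the groups over 14308 genes with Benjamini-Hochberg adjustment, two-sided; the code was tested on simulated data. The precision is limited by 6 arrays: the median SE was 0.08 log2 units. The members and lists were chosen with earlier results of these data known. By rule, every member is named, array values are given for called members and for a fixed set of members, and of the other lists the 12 called genes with the smallest p are named. Array values of further genes were chosen after their values were seen. In all, 17 alternatives were run. Replicate numbers are shared between the groups, but nothing in the labels pairs the cultures.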

Additional observations from a re-analysis of the deposited data

How the results depend on the processing

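The share of all genes called was 7.14% in the main analysis, 42.6% among the 10896 least variable probe sets, 15.6% with a mean-variance trend and 16.1% with the stricter filter. It was 1.84% with no filter, 0.713% with the replicate block, 5.35% with averaged probe sets and 4.95% with probe sets in place of genes. Without single arrays it was 1.76% to 3.63%, and with control centring 13.2% (340 rises and 1552 falls). The counts that follow are to be read against these shares. Among the 39 members tested, 4 rises were counted. The count was 2 with no filter and with probe sets averaged per gene, 7 of 17 among the least variable probe sets, 8 of 39 with the trend and 6 of 33 with the stricter filter; without single arrays it was 1 to 2, and NKD1 alone was called in every one of those fits. The count of falls, 0, became 1 (FZD7) with the least variable probe sets and when arrays were centred on hybridisation controls, and was 0 to 0 without single arrays. The 53 other pathway genes tested had 3 rises and 2 falls. Rises were 12 of 31 with the least variable probe sets, 10 of 53 with the trend, 8 of 42 with the stricter filter and 1 with no filter, with control centring, with probe sets in place of genes and without single arrays. Falls were 4 with the least variable probe sets, 5 with control centring, 1 with the trend and with averaged probe sets, and 0 with no filter, with probe sets in place of genes and without single arrays. Wnt target genes had 10 rises, 6 with no filter and 5 to 7 without single arrays, and 0 falls, which became 3 with the least variable probe sets, with the trend and with control centring, 1 with averaged probe sets and with the stricter filter, and 0 to 0 without single arrays. The causes were not tested. With the replicate block, 1 member rise (NKD1, limma adjusted p = 0.0316), 0 other pathway rises, 0 other pathway falls and 3 target rises remained. Between arrays of the same number, the correlations of deviations were 0.0246, -0.104 and -0.0215, and 1 of 6 arrays correlated best with its own number. These values show no link by number, but from so few arrays they cannot tell whether the cultures were paired. Of 635 values of members under the alternatives, 30 changed sign, 0 of them with an adjusted p under 0.05. Control centring gave -0.082 for FZD4, -0.018 for LRP5, -0.091 for LRP6, -0.069 for DVL2, -0.014 for DVL3, -0.011 for APC, -0.12 for PYGO2, -0.081 for AXIN2, -0.019 for ZNRF3 and -0.0074 for NOTUM, and averaged probe sets gave -0.053 for LRP6. Without single arrays the log2 change ranged from -0.020 to 0.11 for FZD4, -0.039 to 0.024 for FZD6, -0.074 to 0.036 for DVL1, -0.049 to 0.053 for CSNK1A1, -0.39 to 0.063 for TCF7L1, -0.034 to 0.076 for PYGO2, -0.093 to 0.044 for TLE1, -0.016 to 0.32 for TLE2, -0.48 to 0.28 for TLE4, -0.72 to 0.27 for NKD2, -0.0081 to 0.27 for NOTUM and -0.14 to 0.020 for DKK4.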

Other observations

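The dimmer probe sets of some members went beyond their brightest one. The second DVL2 probe set gave a log2 change of 0.33 (limma adjusted p = 0.0893 over all probe sets), against 0.07 for the brightest. The second FZD4 probe set gave 0.66 and the second FZD5 probe set -0.36, against 0.06 and -0.11 for the brightest, and neither was called. The dimmest tested TCF7L2 probe set gave -0.34 (limma adjusted p = 0.083), where the brightest gave -0.08. Over the 93 member probe sets tested, 8 rose and 0 fell in limma, beside 4.28% called over all 26962 probe sets. The calls came from NKD1 (3), FZD3 (2), FZD2, APCDD1 and CTNNB1 (1 each), and probe sets of the same gene are not independent. At an unadjusted limma p under 0.05, 23 were higher and 3 lower, with no share over all probe sets to set beside them. Of 22 members with several tested probe sets, 14 had all of them on the same side of 0.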
